A study of Mus musculus with 3 samples.

Results

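Heterotrimeric G proteins were followed through 10 subunit genes, Gng11, Gnas, Gnaq, Gna13, Gnai2, Gnaz, Gnb1, Gnb2, Gng5 and Gng10, in the RNA of mouse platelets, blood cells without a nucleus that bud from megakaryocytes. The members were named by symbol and matched to Entrez gene numbers, and all 10 were found among the 9822 genes of the count tables. The platelets came from 20-week-old BALB/c males, wild type for the mRNA export receptor gene Nxf1, and gave 3 libraries of 1 group. All values are therefore levels and spreads, with no contrast between conditions. The labels give each library its own batch and do not state whether a library stands for its own mouse. The SDs and p-values thus describe how far these samples spread, and that spread may be technical.

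A heterotrimer holds an alpha subunit, which binds and hydrolyses GTP, and a beta and a gamma subunit that stay together as a dimer. Receptors of the cell surface switch the alpha subunit to its GTP-bound form, after which alpha and the beta-gamma dimer act on separate effectors. In platelets the Gq family couples thrombin, thromboxane and ADP receptors to phospholipase C beta, the G12 and G13 pair also couples to thrombin and thromboxane receptors, Gi lowers cyclic AMP downstream of the ADP receptor P2Y12, and Gs raises cyclic AMP in response to prostacyclin.

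Replicates 1, 2 and 3 held 26974129, 25189231 and 26111636 counts, and a count of 0 would allow up to 0.111, 0.119 and 0.115 CPM (each count divided by the summed counts of its library, times 1000000), taken as 3 counts. All 10 platelet markers, among them Itga2b, Pf4 and Gp9, were at 100 CPM or more in every library, and their sum was 34201, 35782 and 36644 CPM. Red cell markers, 8 of 10 in the tables, summed to 48712, 5217 and 6802 CPM, and B cell markers, 5 of 5 in the tables, to 145, 134 and 226 CPM. T cell markers, 4 of 5 in the tables without Cd3e, summed to 4.49, 3.77 and 6.86 CPM. Neutrophil markers, 3 of 6 in the tables, summed to 10.6, 16.2 and 19.6 CPM, and natural killer cell markers, 3 of 4, to 5.34, 6.63 and 6.51 CPM. Monocyte or macrophage markers, 4 of 5 in the tables without Cd14, summed to 1303, 1526 and 1380 CPM, of which Lyz2 alone averaged 1387. Over all genes, the median deviation of log2 CPM from a gene's mean was -0.07, -0.08 and 0.16 in replicates 1, 2 and 3, so levels in replicate 3 are also given against that shift. In bulk RNA a change in the number of cells of a type cannot be told apart from a change in RNA per cell.

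All 10 members reached 1 CPM in every library, as did 77.7% of all genes, and 4 of them, Gng11, Gnas, Gnai2 and Gng5, reached 100 CPM in every library, as did 7.49% of all genes. Per kilobase of gene length the members had a median of 32.3 CPM, against 1.49 CPM for all genes. All genes here means the 9822 of the tables, each of which reached at least 0.238 CPM in its highest library. Shares and ranks are therefore not over the whole genome. The members took 2.46%, 2.59% and 2.42% of counts in replicates 1, 2 and 3 (95% Clopper-Pearson intervals 2.458% to 2.470%, 2.587% to 2.600% and 2.413% to 2.425%, covering counting error only). Gng11 alone accounted for 1.99%, 2.10% and 1.94% of counts. The other 9 members together held 0.480% ± 0.00844 (SD, n = 3).

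**Figure D1:**
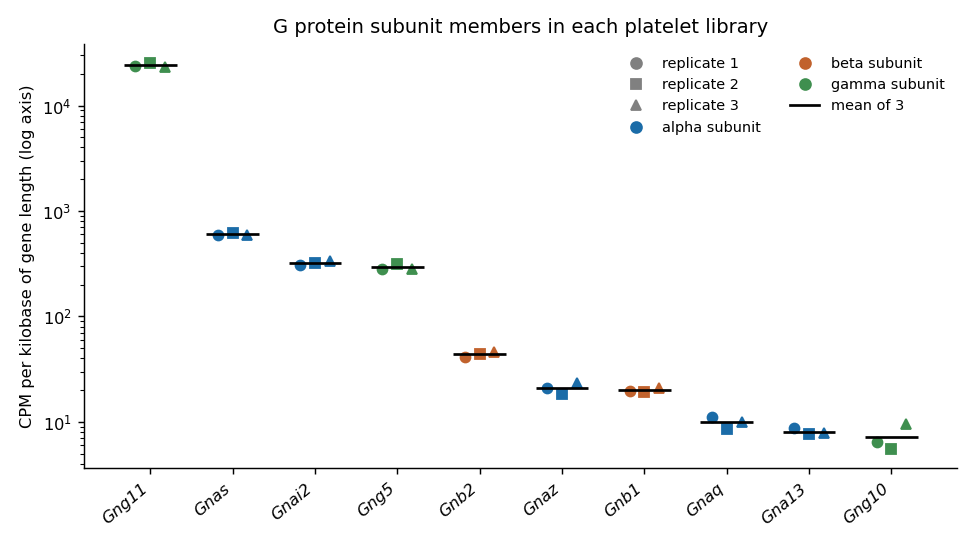
CPM per kilobase of gene length (log axis) of the 10 members in each of the 3 libraries, one marker shape per replicate, with a bar at the mean and colours for the alpha, beta and gamma classes. Gng11 averaged 24069 CPM per kilobase and the next member, Gnas, 601.

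The order of the members was taken from mean CPM per kilobase. They ran Gng11, Gnas, Gnai2, Gng5, Gnb2, Gnaz, Gnb1, Gnaq, Gna13 and Gng10. Of the 9 pairs of neighbours 5 had ranges over the 3 libraries that did not overlap. The ranges of Gnai2 and Gng5 and those of Gnaq and Gna13 overlapped, with Gnai2 and Gnaq the higher in 3 of 3 libraries. Gnaz and Gnb1, and Gna13 and Gng10, overlapped and changed order between libraries, so these pairs did not differ beyond their spread. No p is given for these differences, because the exact two-sided sign-flip test has a smallest p of 0.25 with 3 libraries.

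Promoter windows of the RefSeq table for GRCm38.p6, from 250 bases before to 50 after a gene's start, matched 7 of the 10 members. Gng11, Gnai2 and Gnaz were not matched. The windows of Gnas, at the most downstream of its 4 listed starts, and of Gng5 and Gng10 are shown because these are the highest alpha gene and the highest and lowest gamma genes that were matched. They lie at chr2:174329756-174330055, chr3:146499586-146499885 and chr4:59034906-59035205, on the plus strand. Capitals mark matches on either strand to a GATA motif (AGATAA or TGATAA or AGATAG or TGATAG), an ETS motif (CGGAAG), an SP1 motif (GGGCGG) or CCAAT.
Gnas: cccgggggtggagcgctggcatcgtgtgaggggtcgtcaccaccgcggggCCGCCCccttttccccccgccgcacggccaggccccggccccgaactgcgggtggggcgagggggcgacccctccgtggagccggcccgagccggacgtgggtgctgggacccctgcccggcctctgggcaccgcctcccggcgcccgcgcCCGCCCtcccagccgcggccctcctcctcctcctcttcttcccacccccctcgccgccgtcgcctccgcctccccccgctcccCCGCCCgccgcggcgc
Gng5: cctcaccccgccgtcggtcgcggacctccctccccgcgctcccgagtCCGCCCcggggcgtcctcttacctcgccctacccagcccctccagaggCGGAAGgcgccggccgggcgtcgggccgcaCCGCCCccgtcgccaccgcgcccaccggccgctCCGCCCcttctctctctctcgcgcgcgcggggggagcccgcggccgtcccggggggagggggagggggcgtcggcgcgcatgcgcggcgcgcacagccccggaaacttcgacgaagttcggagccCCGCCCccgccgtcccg
Gng10: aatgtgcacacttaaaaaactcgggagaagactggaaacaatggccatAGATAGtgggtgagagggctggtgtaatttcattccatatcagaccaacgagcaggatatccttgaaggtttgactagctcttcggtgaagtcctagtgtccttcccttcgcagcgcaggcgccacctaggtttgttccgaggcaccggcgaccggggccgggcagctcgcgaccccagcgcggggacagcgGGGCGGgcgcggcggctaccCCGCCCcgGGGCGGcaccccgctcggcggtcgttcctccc

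No marked stretch overlaps another in these windows. The SP1 motif was found in 8 of the 10 member windows, covering all 7 genes, and in 35.7% of the 32851 promoters of the table. All 10 member windows were also richer in G or C than the median promoter. The Gnas windows without an SP1 match share most of their bases with each other, so they are not separate cases. They were richer in G or C than some windows with a match and poorer than others. The Gnas, Gng5 and Gng10 windows shown were 81.7%, 80.7% and 62.3% G or C, and the median promoter 52.7%, and the part of base composition in the count was not tested. The GATA motif was in 2 of 10 windows and 29.8% of all promoters, the ETS motif in 1 of 10 and 16.9%, and CCAAT in 2 of 10 and 37.4%. A RUNX motif (TGTGGT) was in 0 of 10 and 16.8%, and TATAAA in 3 of 10, all 3 of them Gnas starts, and 13.6%. Windows of neighbouring Gnas starts overlap, so the TATAAA matches are 2 distinct sites and the CCAAT matches 1. These are matches of letters in a window and say nothing of a factor's binding.

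Among the alpha subunits, Gnas was highest. Gnas encodes the Gs alpha subunit, which activates adenylyl cyclase, and is an imprinted locus with several starts (chromosome 2, 174284320 to 174346744, GRCm38). It had 3621, 3762 and 3554 CPM in replicates 1, 2 and 3, a mean of 3645 ± 106 CPM and 601 ± 17.5 CPM per kilobase (SD, n = 3). In plain CPM the replicates lay close together, with replicate 2 highest. With edgeR's TMM scaling of the totals Gnas was at 3815, 3940 and 3220 CPM, with an SD of 385. The deposited length of 6061 bases is longer than its longest GENCODE M21 transcript, 3947 bases, and the median basic transcript, 2992 bases, with which Gnas stood at 924 and 1218 CPM per kilobase. Nespas and Gm20721 overlap its exons on the opposite strand and are not in the tables analysed here. The strand setting of the counting is not given in the sources used here, so reads of antisense partners cannot be told apart from those of Gnas.

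Gnai2, the Gi family member that inhibits adenylyl cyclase (chromosome 9, 107614125 to 107635391), followed with 676, 693 and 738 CPM, or 323 ± 14.8 CPM per kilobase. Gnas exceeded it by 0.90 ± 0.09 on the log2 scale of CPM per kilobase, and its lowest library lay above the highest of Gnai2. The related Gnai3 was at 24.9, 24.6 and 30.4 CPM, so that Gnai2 stood 5.29 ± 0.11 (log2, CPM per kilobase) above it, a 39.0-fold difference. Gnaz encodes Gz, a Gi family member that is insensitive to pertussis toxin (chromosome 10, 74967177 to 75016907). It had 51.2, 44.7 and 57.3 CPM, or 20.98 ± 2.60 CPM per kilobase, and Gnai2 stood 15.5-fold above it. Its lowest library was replicate 2. On its longest transcript Gnaz was at 14.5 CPM per kilobase, below Gnb1. Rsph14, on the opposite strand, overlaps none of its exon bases and had 24, 26 and 32 counts.

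Gnaq, the Gq subunit that activates phospholipase C beta (chromosome 19, 16132684 to 16388520), had 62.5, 47.8 and 56.7 CPM, or 9.88 ± 1.32 CPM per kilobase. Gna11, its closest relative, had 14, 13 and 16 counts, below 1 CPM in every library. Gnaq exceeded Gna11 by 5.87 ± 0.22 on the log2 scale of CPM per kilobase. Of the other Gq family genes, Gna14 and Gna15 are not in the tables analysed here. The pseudogene E030024N20Rik, inside Gnaq on the opposite strand and with no exon bases shared, had 547, 489 and 552 counts.

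Gna13, the G13 subunit that couples to thrombin and thromboxane receptors (chromosome 11, 109362794 to 109401369), had 54.5, 47.4 and 48.6 CPM, or 8.10 ± 0.615 CPM per kilobase. With the median basic transcript length it stood at 14.2 CPM per kilobase, above Gnaq. Its relative Gna12 had 5.89, 5.92 and 8.27 CPM. Gna13 exceeded Gna12 by 1.20 ± 0.33 (log2, CPM per kilobase) and was higher in 3 of 3 libraries. The antisense gene Gm11696 shares 151 of the exon bases of Gna13 and had 276, 228 and 298 counts. Gnaq and Gna13 differed by 0.28 ± 0.11 on the log2 scale of CPM per kilobase, and their ranges overlapped.

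Within the alpha class, Gnas made up 62.2%, 63.0% and 59.8% of CPM per kilobase, a mean of 61.7% ± 1.70 (SD, n = 3), and Gnai2 33.1% ± 1.28. Gnaz made up 2.15% ± 0.271, Gnaq 1.01% ± 0.148 and Gna13 0.831% ± 0.0749. By family, Gi genes held 36.1% ± 1.61, Gq genes 1.03% ± 0.148 and the G12 and G13 pair 1.20% ± 0.0864. Gnal, the olfactory relative of Gnas, was at 2.01 ± 0.284 CPM. The share of Gnas depended on the length used: without division by length it was 80.3%, with the longest transcript 71.9% and with the median basic transcript 73.2%.

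**Figure D2:**
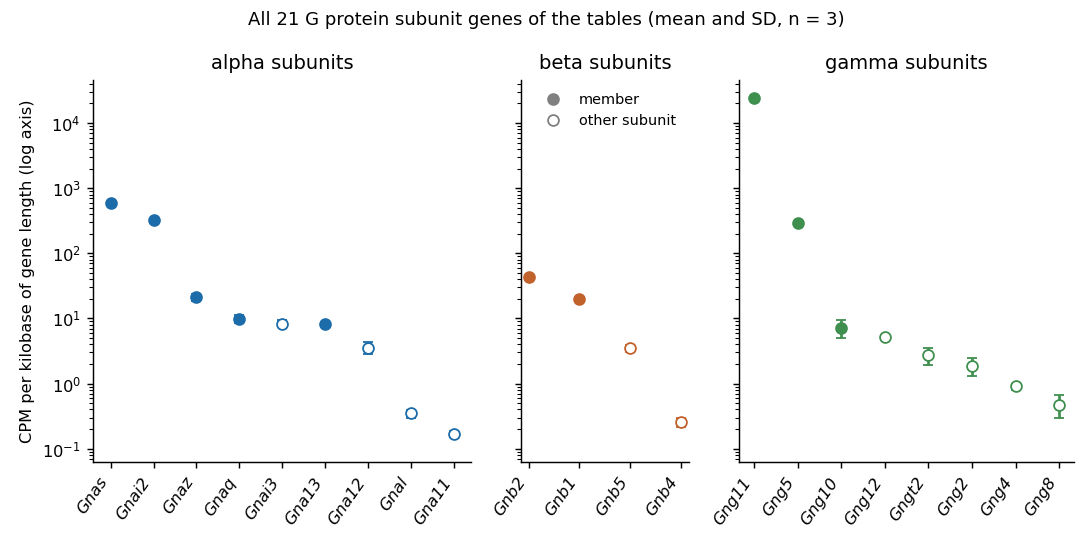
Mean CPM per kilobase (log axis) with SD over 3 libraries for the 21 subunit genes of the tables, by class, with filled circles for the 10 members and open circles for the other 11. The 3 genes Gna11, Gnb4 and Gng8 were below 1 CPM in every library.

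The beta subunits were lower than the leading alpha and gamma genes. Beta subunits form the propeller-shaped partner of gamma. Gnb2 (chromosome 5, 137528127 to 137533449) had 65.2, 68.8 and 72.4 CPM, or 43.6 ± 2.26 CPM per kilobase, and Gnb1 (chromosome 4, 155491300 to 155559269) had 61.6, 59.8 and 66.3 CPM, or 19.9 ± 1.06 CPM per kilobase. In CPM, which does not allow for length, the ranges of the pair overlapped. Per kilobase Gnb2 exceeded Gnb1 by 1.13 ± 0.06 (log2) and was higher in 3 of 3 libraries. Gnb2 made up 64.8% ± 0.509 of the beta class, Gnb1 29.6% ± 1.01, Gnb5 5.21% ± 0.525 and Gnb4 0.382% ± 0.0772. Without division by length Gnb1 made up 45.1%. Epo and Mir6418 overlap exons of Gnb2 on the same strand and are not in the tables analysed here.

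Gamma subunits carry the lipid anchor that holds the dimer at the membrane. Gng11 (Entrez gene 66066, chromosome 6, 4003987 to 4008445) had 19893, 21035 and 19437 CPM, or 24069 ± 985 CPM per kilobase. It ranked 6 of 9822 genes by CPM per kilobase. None of the 50-base words of its longest GENCODE M21 transcript occurred in another gene. Its share of the gamma class was 98.8%, 98.7% and 98.7%. Against the shift of the median gene it lay 0.06 and 0.15 (log2) above in replicates 1 and 2, and at -0.21 in replicate 3.

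Gng5 (chromosome 3, 146499836 to 146505543) had 149, 168 and 151 CPM, or 292 ± 19.5 CPM per kilobase on its deposited length of 535 bases, and 64.6 CPM per kilobase on its longest transcript of 2419 bases. Gng11 exceeded it by 6.37 ± 0.05 on the log2 scale of CPM per kilobase. Of its 50-base words 5.70% occurred in other genes, among them the pseudogene Gng5-ps, so its counts are uncertain. That share is over its longest transcript, and the share of counted reads affected was not measured. Gng10 (chromosome 4, 59035156 to 59041899) was the lowest member, with 194, 156 and 282 counts, or 7.19, 6.19 and 10.8 CPM and 7.20 ± 2.16 CPM per kilobase. Of its exon bases 79.4% lie in Gm20503, a gene on the same strand that is not in the tables analysed here, so how its reads were assigned is uncertain.

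Replicate 3 was highest for Gng10, at 0.30 (log2) above the median gene's shift, and for the non-members Gng2, at 5.64, 6.23 and 9.73 CPM, and Gna12. In plain CPM it was also highest for Gnai2, Gnaz, Gnb1, Gnb2 and Gnai3. Against the shift those 4 members lay at -0.08, 0.02, -0.07 and -0.08 there. With TMM scaling Gng10 was at 7.58, 6.49 and 9.78 CPM. In plain CPM, the B cell, T cell, neutrophil and platelet marker sums given above were also highest in replicate 3. These sums were not set against the shift, and the platelet sum rose by less than the shift. The part of these markers in the subunit levels was not tested. Gng11, Gnas, Gng5 and Gna13 lay in the other direction, at -0.21, -0.19, -0.20 and -0.20 in replicate 3.

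**Figure D3:**
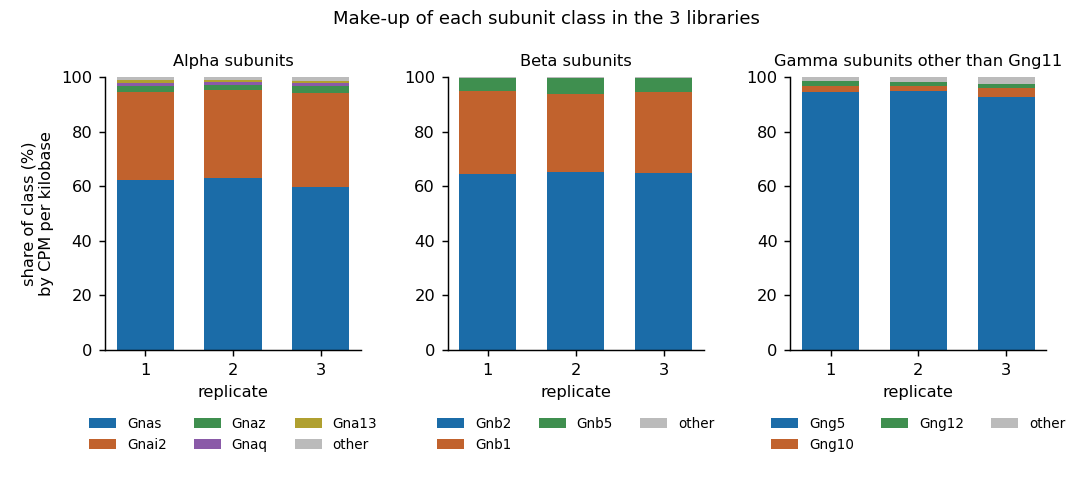
Share of each class, in percent of summed CPM per kilobase, held by each gene in replicates 1, 2 and 3, with the gamma class drawn without Gng11. Gng5 held 94.6%, 94.9% and 92.7% of that remainder, Gnas 62.2%, 63.0% and 59.8% of the alpha class, and Gnb2 64.4%, 65.4% and 64.7% of the beta class.

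Gng11 made up 98.7% ± 0.0407 of the gamma class in CPM per kilobase (SD, n = 3). Of what was left, Gng5 made up 94.1% ± 1.19, Gng10 2.34% ± 0.762 and the non-member Gng12 1.68% ± 0.0859. Gng12 was at 22.7 ± 0.482 CPM, or 5.21 ± 0.111 CPM per kilobase. The gamma class summed to 24379 ± 1001 CPM per kilobase, the alpha class to 975 ± 13.3 and the beta class to 67.3 ± 3.39. The log2 ratio of gamma to beta was 8.50 ± 0.11, a 362-fold difference, and that of beta to alpha -3.86 ± 0.06. Without Gng11, gamma to beta was 2.20 ± 0.11, and without Gnas, beta to alpha was -2.47 ± 0.02. Without division by length these were 0.52 ± 0.08 and -2.69 ± 0.03, and Gng5, with its deposited length of 535 bases, held most of the gamma sum per kilobase without Gng11. These are amounts of RNA, and no protein was measured.

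Of the 33 subunit genes listed, 21 were in the tables and 18 reached 1 CPM in every library, as did 77.7% of all genes in the tables. The other 12, Gnai1, Gnao1, Gnat1, Gnat2, Gnat3, Gna14, Gna15, Gnb3, Gng3, Gng7, Gng13 and Gngt1, are not in the tables analysed here. Of the remaining subunits in the tables, Gnb5 was at 6.76 ± 0.881, Gng4 at 2.68 ± 0.274, Gngt2 at 1.91 ± 0.581, Gnb4 at 0.702 ± 0.111 and Gng8 at 0.438 ± 0.169 CPM. The 11 non-members together took 0.00783% ± 0.000781 of counts.

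Receptors and effectors of the same routes are set beside the alpha subunits. Of all genes in the tables, 77.7% reached 1 CPM in every library. The counts at 1 CPM in this and the following lists are read beside that share. Of the Gs-coupled receptors listed, 2 of 8 were in the tables and both reached 1 CPM in every library. They were Ptgir, the prostacyclin receptor, at 24.2 ± 0.756 CPM per kilobase, and Adora2a, an adenosine receptor, at 0.589 ± 0.0977. Of the Gi-coupled receptors, 5 of 7 were in the tables and 3 reached 1 CPM. P2ry12, the ADP receptor P2Y12, was at 1449 ± 57.1 CPM per kilobase, Ptger3, a prostaglandin E2 receptor, at 3.00 ± 0.794 and S1pr1, a sphingosine-1-phosphate receptor, at 0.885 ± 0.241. Adenylyl cyclases, the target of Gs and Gi, had 4 of 10 in the tables, all 4 at 1 CPM or more, led by Adcy6 at 9.29 ± 0.949, Adcy9 at 2.67 ± 0.256 and Adcy5 at 2.40 ± 0.359 CPM per kilobase.

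In the list of Gq-coupled receptors, 5 of 8 were in the tables and 4 reached 1 CPM. F2rl2, which encodes PAR3, a cofactor for thrombin signalling in mouse platelets, was at 66.2 ± 3.66 CPM per kilobase. The ADP receptor P2ry1 was at 20.4 ± 1.20 and F2r, which encodes a thrombin receptor, at 2.98 ± 0.0336. The phospholipase C beta genes were all 4 in the tables and at 1 CPM or more, led by Plcb1 at 6.71 ± 0.114, Plcb4 at 1.52 ± 0.174 and Plcb2 at 0.569 ± 0.255 CPM per kilobase.

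**Figure D4:**
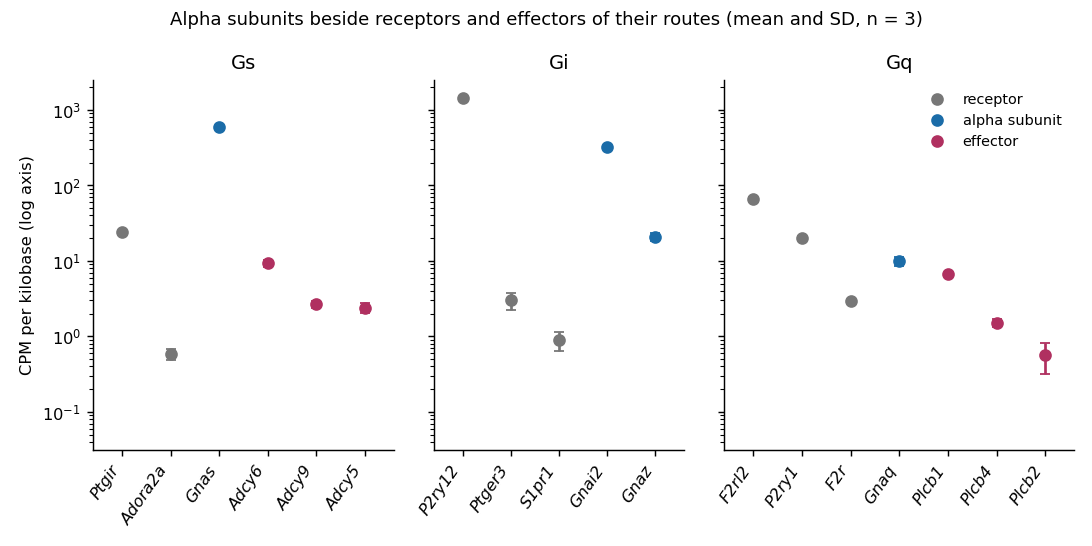
Mean CPM per kilobase (log axis) with SD over 3 libraries for alpha subunits of the Gs, Gi and Gq routes beside up to 3 of the highest receptors and effectors of each. P2ry12 stood at 1449 and Gnai2 at 323 CPM per kilobase, and Ptgir at 24.2 and Gnas at 601.

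Of the effectors of beta-gamma, 5 of 8 were in the tables and at 1 CPM or more, led by the potassium channel subunit Kcnj5 at 6.28 ± 0.0900, the Rac exchange factor Prex1 at 5.42 ± 0.599 and the kinase subunit Pik3cg at 4.73 ± 0.480 CPM per kilobase. Regulators that end the signal were led by the GTPase accelerators Rgs18, at 2356 ± 112, and Rgs10, at 2033 ± 55.2 CPM per kilobase, with Rgs6 next at 4.18 ± 0.0901. Of 20 RGS genes listed, 9 were in the tables and at 1 CPM or more, with a median of 1.44 CPM per kilobase. Receptor kinases and arrestins had 6 of 8 in the tables and at 1 CPM or more, with a median of 52.7 CPM per kilobase, led by Arrb2 at 226 ± 7.11, Grk5 at 125 ± 2.50 and Arrb1 at 91.3 ± 10.4 CPM per kilobase.

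Lists of chaperones and exchange factors, and of prenylation and anchoring enzymes, are also set beside the same 77.7% of all genes. Chaperones and exchange factors had 14 of 18 in the tables and 13 at 1 CPM or more, led by Ric8a, a chaperone of alpha subunits, at 76.6 ± 3.03, Gpsm3 at 60.9 ± 6.34 and the chaperonin subunit Cct2 at 10.3 ± 1.37 CPM per kilobase. The enzymes that prenylate and anchor the subunits had 9 of 9 in the tables and 8 at 1 CPM or more, led by Zdhhc7 at 13.8 ± 0.901, Fntb at 7.20 ± 1.48 and Nmt1 at 3.47 ± 0.974 CPM per kilobase.

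Genes closest to 3 members in level were found by the Euclidean distance of log2 CPM per kilobase over the 3 libraries. For Gng11 they were Nrgn at a distance of 0.0846, the unnamed Entrez gene 100628626 at 0.254 and the platelet chemokine Pf4 at 0.867. For Gnas they were Ormdl3 at 0.0921, Cst3 at 0.101 and Alox5ap at 0.105, and for Gnb1 Arrdc3 at 0.0295, Ginm1 at 0.0334 and Tank at 0.0491.

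Spread between libraries was tested with edgeR, which set each gene's quasi-likelihood dispersion against the trend over 8289 genes. It called 19 genes, 0.229% of those tested, at a Benjamini-Hochberg adjusted p under 0.05, and 0 of the 10 members. At an unadjusted p under 0.05 in edgeR there were 356 of the 8289 genes and 0 members. DESeq2's dispersion outliers numbered 49 of 8289 genes and 0 members. With shares this small over all genes, 0 of 10 does not set the members apart. The smallest p among the members were 0.130 for Gnaq and 0.148 for Gng10 in edgeR, with an adjusted p of 0.982 each. Without replicate 1, the library with the highest red cell marker sum, 1 of 8394 genes tested was called. Without replicate 2 there were 29 of 8406 and without replicate 3 there were 32 of 8003, with 0 members in any of these fits. The median SD of log2 CPM was 0.0853 for the members and 0.203 for the genes tested, and the members had more counts than the median gene. Both SDs use plain totals and so hold the shift between libraries, -0.07, -0.08 and 0.16 for the median gene. Median SDs without that shift were not compared, so the difference does not show that the members were steadier.

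**Figure D5:**
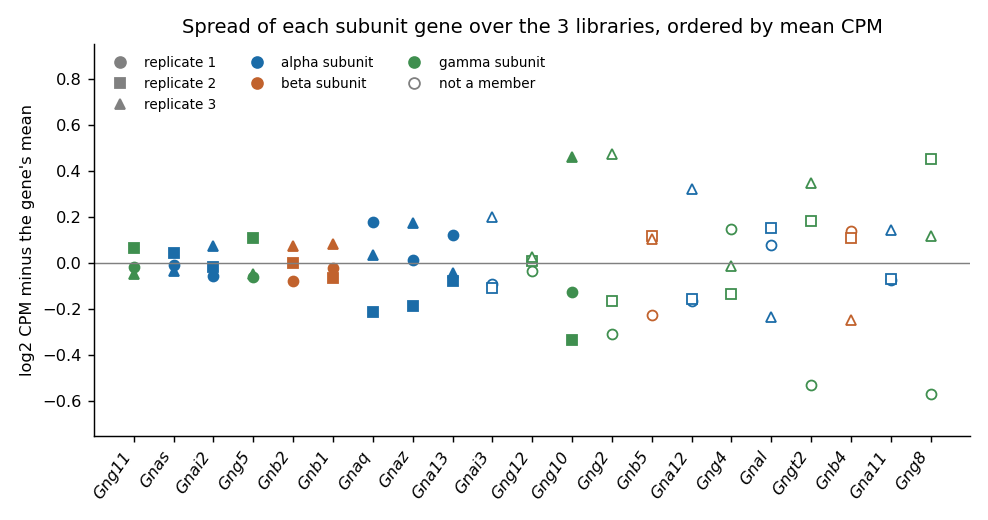
Log2 CPM minus the gene's mean over the 3 libraries for the 21 subunit genes, ordered by mean CPM, with one marker shape per replicate and open markers for non-members. Gng10 lay at -0.12, -0.34 and 0.46 in replicates 1, 2 and 3, and Gng11 at -0.02, 0.06 and -0.05.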

How the data were processed

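Whole-transcriptome RNA was counted in 3 platelet libraries. Per the labels, a Norgen kit was used to isolate RNA and the Illumina TruSeq RNA v2 kit to make libraries. The authors deposited, for each library, raw counts per Entrez gene with a gene length. The submitters' processing notes name CASAVA 1.8.2, Subread, featureCounts, edgeR 3.11.5 and mm10. For the annotation, strand setting and handling of reads with several matches, the value is not given in the sources used here. The tables share 9822 genes; 9636 had a symbol in RefSeq for GRCm38.p6, the assembly of mm10, and 186, with 0.995% of counts, did not.

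The members and gene lists were chosen with earlier results of these data known. CPM used the plain total of counts, and CPM per kilobase the deposited length. Spread was tested with edgeR 4.0.16 (limma 3.58.1, R 4.3.3): an intercept, TMM scaling and genes averaging at least 1 CPM, after tests on simulated data. DESeq2 1.42.0 was an alternative. Named genes were the members, the other listed subunits in the tables, the 3 highest per kilobase of each of 11 other lists (1 of which is not reported here), the 3 nearest to Gng11, Gnas and Gnb1, and genes overlapping a member. Python 3.11.15, NumPy 2.4.6, pandas 2.3.3, SciPy 1.17.1 and matplotlib 3.10.9 were used for the rest. Alternatives were other scalings, detection minimums, gene lengths, filters and leaving out each library. The median transcript length, and the scalings of single members, were added after seeing the data.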

Additional observations from a re-analysis of the deposited data

How the results depend on the processing

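Set against totals without the 10 highest genes, the members' counts came to 4.39%. Gng11, which ranked 7 by CPM, is among those 10 but stayed in the members' sum, so this is not a share of that total. Without the mitochondrial ribosomal RNAs in the total, the members' share was 3.26%. Shares and ratios moved mainly with length. Without division by length, Gng11 made up 99.0% of gamma, Gnas 80.3% of alpha and Gnb1 45.1% of beta, with log2 ratios of 7.19 for gamma to beta and -5.03 for beta to alpha. With the longest transcript the shares were 99.6%, 71.9% and 33.1% and beta to alpha was -4.41. With the median basic transcript they were 98.6%, 73.2% and 28.4%, with ratios of 8.29 and -4.55. Over members only, Gng11 made up 98.8%, Gnb1 31.3% and beta to alpha was -3.92. Genes that varied numbered 11 with plain totals, 11 at a mean of 5 CPM, 0 with a robust prior (396 at an unadjusted p under 0.05 in edgeR) and 49 by DESeq2. Apart from length and the genes summed, the cause was not tested. Leaving out each library in turn gave ranges of 2.44% to 2.53% for the members' share, 98.70% to 98.74% for Gng11, 61.0% to 62.6% for Gnas, 29.1% to 30.1% for Gnb1, 8.46 to 8.56 for gamma to beta, -3.89 to -3.84 for beta to alpha, 1 to 32 genes that varied and 6 to 7 of 9 neighbouring pairs without overlap (5 with all libraries, since fewer libraries narrow the ranges). Among CPM values of single members, 30 moved by less than 1 SD and 20 by more, all 20 with totals lacking the 10 highest genes or the mitochondrial ribosomal RNAs. Smaller totals raise every gene, and TMM and DESeq2 factors average close to 1, so these counts say little of the members. With TMM scaling the SD of Gng11 was 2308 CPM against 823, and that of Gnas 385 against 106. It also rose for Gnaq, Gna13 and Gng5 and fell for Gnai2, Gnaz, Gnb1, Gnb2 and Gng10. None of these shares or ratios changed direction, but the order of members did: Gnaz at 14.5 CPM per kilobase fell below Gnb1 at 19.9 with the longest transcript, and Gna13 at 14.2 lay above Gnaq at 9.87 with the median basic transcript. In log2, Gnaz to Gnaq was 1.09 per kilobase and -0.12 without division by length. No paired analysis was possible because the 3 libraries form 1 group. Low counts limit Gng10, Gng2, Gna12 and Gnb5 and, with fewer counts still, Gna11, Gnb4, Gng8, Gngt2, Gnal and Gng4. Counting error was smaller than the spread of Gng10 between libraries. Its SD in CPM was 30.1% of its mean, against a counting error of 8.01% in its lowest library.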

Other observations

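RefSeq lists 8 genes within 200000 bases of Gng11 on chromosome 6, and 1 of them, Bet1, was in the tables, at 4.93 ± 0.382 CPM (SD, n = 3) and 3.36 CPM per kilobase. Its neighbours Gngt1, another gamma subunit gene, and Tfpi2 are not in the tables analysed here. This neighbourhood was chosen after the values were seen.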
